A study of Sus scrofa with 32 samples.

Results

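The genes described here are the myogenic regulators and myostatin: the 4 myogenic regulatory factors MYOD1, MYOG, MYF5 and MYF6, the myocyte enhancer factors MEF2A, MEF2C and MEF2D, and MSTN, which encodes myostatin. They were chosen by name from their known role in muscle and not by a rule on their values, though with earlier results of these data known. Of these 8 genes, 7 had a pig Ensembl identifier among the 25322 gene identifiers of the count table, and MYOG was not analysed here. The identifiers were ENSSSCG00000013375 (MYOD1), ENSSSCG00000000937 (MYF5), ENSSSCG00000026533 (MYF6), ENSSSCG00000016047 (MSTN), ENSSSCG00000028771 (MEF2A), ENSSSCG00000014149 (MEF2C) and ENSSSCG00000006482 (MEF2D).

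RNA was sequenced from 2 skeletal muscles, the longissimus dorsi (LD) of the loin and the semimembranosus (S) of the ham, of 16 gilts. Of these, 8 were of the Pulawska breed (PUL) and 8 were Polish Landrace pigs (PL). The labels give an age of 180 days and a shear force class, high for PUL and low for PL. The study's methods, however, have the pigs fed to a set live weight, and its mean shear measurements put the breeds in the opposite order to the labels, so that the groups are called here by breed alone and neither age nor texture is used. No group carried a transgene or received a treatment, and 1 library was made from each muscle of each pig, so that the 4 groups of breed by muscle held 8 libraries each. Farm of origin varied and is not used here per pig, and breed, farm, age at slaughter and texture cannot be told apart.

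Myogenic regulatory factors are basic helix-loop-helix proteins that bind E-box sequences together with ubiquitous E proteins and switch on muscle genes. MYF5 and MYOD1 act early and commit cells to the muscle lineage, MYOG drives terminal differentiation, and MYF6, also called MRF4, is the family member that is most abundant in adult fibres. MEF2 proteins are MADS-box factors that cooperate with them and that are held in check by class II histone deacetylases and released by calcium signals. Myostatin is a secreted member of the transforming growth factor beta family that limits muscle mass, acts through activin type II receptors and SMAD2 and SMAD3, and is itself a target of myogenic factors. In adult muscle MYF5 and MYOD1 are known from satellite cells, the resident stem cells, so that their RNA can come from a small share of the nuclei. In tissue RNA, fewer cells of a type and less RNA per cell cannot be told apart.

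Levels are given in CPM, the usual depth-scaled unit, computed from the expected counts with edgeR's TMM factors, and they were not divided by gene length, so that only values of the same gene are compared. The libraries held 8821273 to 24761853 counts. Skeletal muscle identity was checked with the 3 of 8 muscle structural genes of the list that had an identifier, and their summed level was 37673 CPM or higher in every library. A list of 16 hepatocyte genes, of which 13 had an identifier, summed to between 26.0 and 1509 CPM (median 118.6) in the 10 libraries of PUL pigs 1 to 5. The same sum lay between 8.04 and 65.5 CPM in the other 6 PUL libraries and between 9.34 and 33.9 CPM in the 16 PL libraries. PL pig 14 also stood apart, because the deviations of its LD and S libraries from their group means were opposed (r = -0.51 across 5052 genes), whereas the most alike pair reached 0.81. The values of PL pigs 7 and 9 were also below 0 (-0.19 and -0.02), and a pig's own pair was the most alike in 5 of 16 pigs. The labels were kept, and whether libraries were exchanged was not tested. For the 7 genes, fold changes over all pigs and between breeds are given with and without PUL pigs 1 to 5 and PL pig 14. Those of other genes are given from the full set alone.

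All 7 genes were detected in all 32 libraries and passed the filter on low counts in every comparison. MYF5 was the least well counted, with 3 to 49 counts per library, and MYF6 had 760 to 8310. MSTN had the widest range, from 1.10 CPM in the LD of PUL pig 13 to 16.96 CPM in the LD of PL pig 12, which is a 15.5-fold range over the 32 libraries. MYF5 followed with a 12.6-fold range, MYF6 with 7.80-fold and MYOD1 with 7.48-fold. The MEF2 genes ranged less, by 4.99-fold for MEF2C, 4.17-fold for MEF2D and 2.97-fold for MEF2A. The group means were much closer to each other than single pigs were, and the highest exceeded the lowest by 1.15-fold for MEF2C, 1.23-fold for MEF2A, 1.301-fold for MEF2D, 1.54-fold for MYOD1, 1.56-fold for MYF6, 2.13-fold for MYF5 and 2.48-fold for MSTN.

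**Figure D1:**
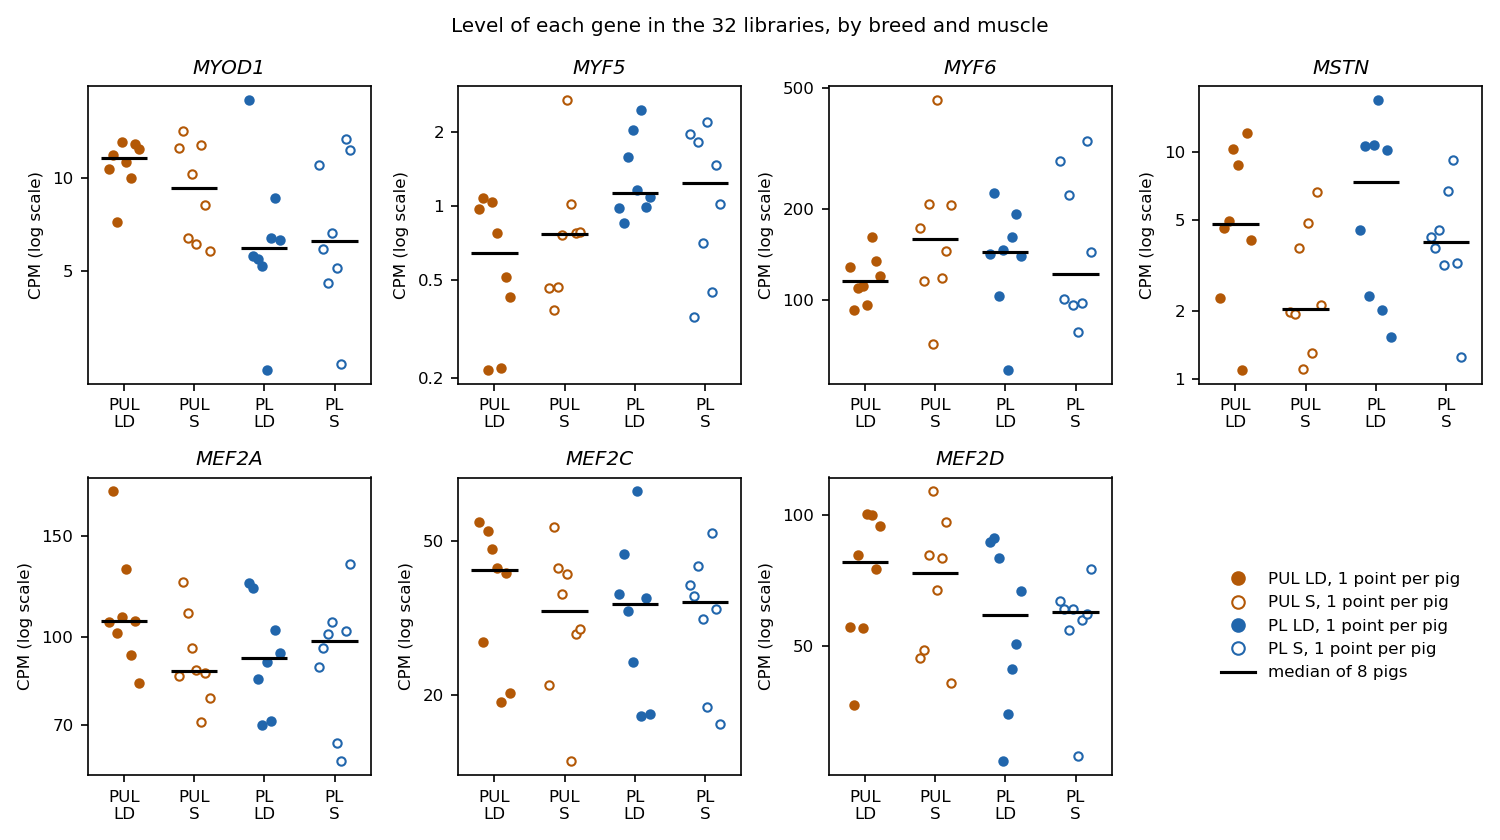
Level of each of the 7 genes in CPM on a log scale, by breed and muscle, with 1 point per pig (filled, LD; open, S) and a line at the median of 8 pigs. The points of the 4 groups overlap for every gene, with most of the spread inside the groups, as for MSTN, which runs from 1.10 to 16.96 CPM.

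Variation beyond counting was described by edgeR's biological coefficient of variation, which had a median of 30.1% over the 11563 tested genes. The coefficient came from the fit of S over LD with the pig as a block, which takes out the level that a pig's muscles share. It thus describes how the muscle difference varied, and not the spread of pigs within a group. It was 52.0% for MYF5 and 50.2% for MSTN, above the values of 87.5% and 85.9% of tested genes. MYF6 had 38.6%, MEF2C 36.5%, MYOD1 32.1% and MEF2D 29.2%. MEF2A was the steadiest of the genes with 20.5%, below the value of most tested genes, since only 14.9% of them were lower. Counting error accounted for 16.9% of the variance of MYF5 within groups, for 4.33% in MYOD1 and for at most 2.42% in the other 5 genes.

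The first question was whether these regulators differ between the ham and the loin of the same pig. With the pig as a block in edgeR's quasi-likelihood test, none of the 7 genes reached an adjusted p of 0.05, against 13 of 11563 tested genes (0.112%). MSTN had the lowest unadjusted p of the 7 genes, with a lower level in S than in LD, and MYF6 alone of the other 6 had a log2 fold change beyond 0.2.

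In PUL pigs, MSTN was at 1.10, 2.26, 4.08, 4.63, 4.94, 8.71, 10.3 and 12.1 CPM in LD, with a mean of 6.02 ± 3.93 CPM (SD, n = 8). In the S of PUL pigs it lay between 1.11 and 6.65 CPM, with a median of 2.04 CPM and a mean of 2.96 ± 1.96 CPM (SD, n = 8). In PL pigs it ran from 1.53 to 16.96 CPM in LD (median 7.36, mean 7.34 ± 5.58, SD, n = 8) and from 1.26 to 9.22 CPM in S (median 3.99, mean 4.51 ± 2.44, SD, n = 8). The muscles overlapped in both breeds, but within pigs LD was the higher in 13 of 16, 7 of 8 PUL and 6 of 8 PL pigs. The 3 pigs with the higher level in S were PUL pig 13 (1.10 and 1.303 CPM), PL pig 9 (2.31 and 4.535 CPM) and PL pig 14 (2.01 and 9.22 CPM in LD and S). The widest gap was that of PUL pig 4, from 10.3 CPM in LD to 1.11 CPM in S.

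Over all pigs, the log2 fold change of MSTN in S over LD was -0.72 (SE 0.28, 95% interval -1.31 to -0.13), a level 1.65-fold lower in S. It did not pass the adjustment over all genes (edgeR's quasi-likelihood test, unadjusted p = 0.0198, adjusted p = 0.706), although 5.85% of tested genes had an unadjusted p under 0.05. An exact sign-flip permutation test over the 65536 sign patterns of the 16 differences of log2(CPM + 0.5), two-sided, gave p = 0.0392 for MSTN and from 0.114 to 0.895 for the other 6 genes, without adjustment. Leaving out 1 pig at a time gave log2 fold changes from -0.90 (without PL pig 14, adjusted p = 0.0827) to -0.57 (without PUL pig 4). Without PUL pigs 1 to 5 the log2 fold change was -0.52 (adjusted p = 0.999). It was -0.92 (SE 0.40, adjusted p = 0.726) in PUL, where 3 genes or 0.0259% of those tested passed and 6.56% had an unadjusted p under 0.05, and -0.51 (SE 0.41, adjusted p = 1) in PL, where none of the 11563 genes passed and 2.29% had an unadjusted p under 0.05. Without PL pig 14, the value in PL was -0.86, and without PL pig 10 it was -0.30, the ends of the range over single pigs left out. The difference between the breeds in this muscle effect was 0.41 (SE 0.57, 95% interval -0.79 to 1.62, adjusted p = 0.9996), and it was 0.069 without PL pig 14 and 0.087 without PUL pigs 1 to 5.

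**Figure D2:**
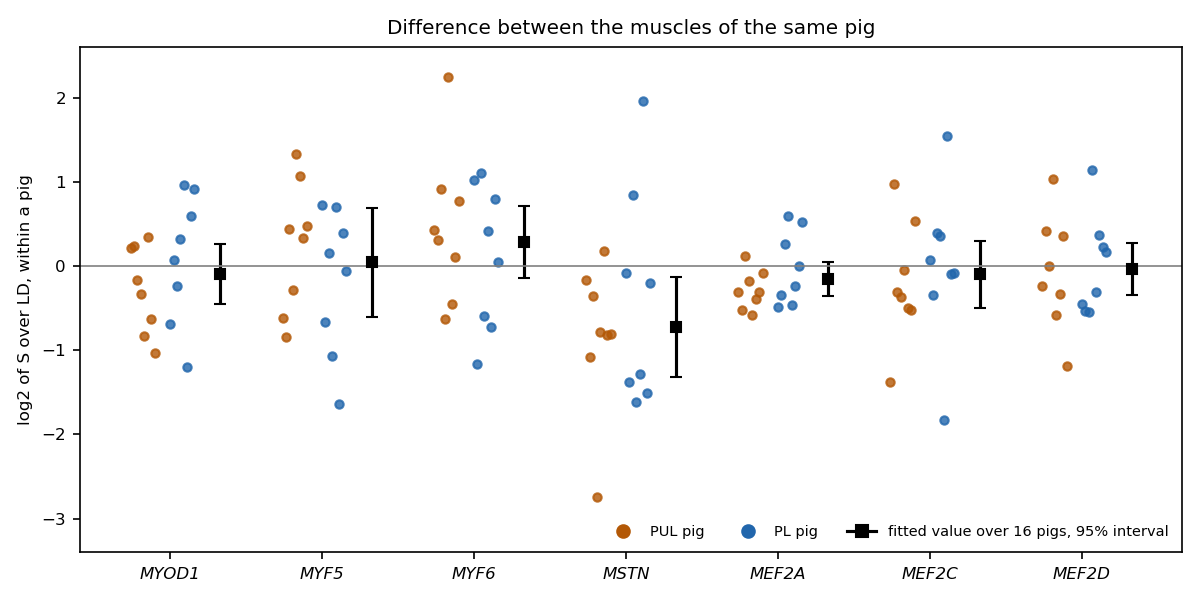
Log2 of S over LD in each pig, from log2(CPM + 0.5), for the 7 genes, with PUL and PL pigs in 2 colours and, as a square, the fitted log2 fold change over 16 pigs with its 95% interval. For MSTN 13 of 16 points lie below 0 and the interval runs from -1.31 to -0.13, while the intervals of the other 6 genes include 0.

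MYF6 was at 93.0 to 162.1 CPM in the LD of PUL pigs (median 115.7, mean 119.5 ± 22.4, SD, n = 8) and at 71.5 to 459.0 CPM in their S (median 159.3, mean 187.0 ± 119.4, SD, n = 8). In PL pigs it was at 58.9 to 226.2 CPM in LD (median 143.8, mean 146.1 ± 51.1, SD, n = 8) and at 78.4 to 334.1 CPM in S (median 122.5, mean 170.0 ± 98.4, SD, n = 8). The level was higher in S in 11 of 16 pigs, the widest gap being that of PUL pig 5, from 96.5 CPM in LD to 459.0 CPM in S. The log2 fold change of MYF6 was 0.28 (SE 0.20, 95% interval -0.14 to 0.71, adjusted p = 0.947), 0.16 without PUL pig 5, 0.13 without PUL pigs 1 to 5 and 0.35 without PL pig 14.

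MEF2A, which is expressed in many tissues, had the narrowest spread of the paired differences. In PUL pigs, LD had 83.0 to 179.6 CPM (median 106.4, mean 113.6 ± 30.0, SD, n = 8) and S had 70.9 to 124.5 CPM (median 87.0, mean 92.3 ± 17.4, SD, n = 8). The ranges overlapped, and LD was the higher in 7 of 8 PUL pigs, with PUL pig 3 as the exception. The log2 fold change of MEF2A was -0.28 in PUL (SE 0.13, 95% interval -0.56 to -0.01, unadjusted p = 0.0437, adjusted p = 0.751) and -0.02 in PL (SE 0.13, 95% interval -0.30 to 0.26), where LD was the higher in 5 of 8 pigs. The breeds did not differ detectably in this effect (difference 0.26, SE 0.19, 95% interval -0.13 to 0.65, adjusted p = 0.9996), and over all pigs it was -0.15 (SE 0.10, adjusted p = 0.925), with -0.08 without PUL pigs 1 to 5 and -0.15 without PL pig 14.

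For MYOD1, MYF5, MEF2C and MEF2D, the difference between the muscles was small beside the spread of pigs. Their log2 fold changes in S over LD over all pigs were -0.09 for MYOD1 (95% interval -0.45 to 0.26), 0.04 for MYF5 (-0.61 to 0.69), -0.10 for MEF2C (-0.50 to 0.30) and -0.03 for MEF2D (-0.34 to 0.28). Without PUL pigs 1 to 5 they were -0.05 for MYOD1, 0.10 for MYF5, -0.03 for MEF2C and -0.10 for MEF2D, and without PL pig 14 they were -0.02, 0.19, -0.20 and -0.06 in the same order. The pigs were divided between the directions, with S the higher in 8 of 16 pigs for MYOD1, 9 for MYF5, 6 for MEF2C and 8 for MEF2D. Single pigs nevertheless differed widely between their muscles, and MEF2C was at 67.2 CPM in LD and 18.6 CPM in S in PL pig 12 but at 17.6 CPM in LD and 52.4 CPM in S in PL pig 14. In the test of breed by muscle, none of 11563 genes passed (2.54% had an unadjusted p under 0.05), and the differences of these 4 genes between breeds lay between -0.61 (MYF5, SE 0.63) and 0.39 (MYOD1, SE 0.34).

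The second question was whether PL and PUL pigs differ in the level of these regulators in each muscle. No gene of those tested passed in edgeR's quasi-likelihood test, neither among 10792 in LD nor among 10687 in S, so that the share of all genes called was 0% and none of the 7 genes was called. At an unadjusted p under 0.05 there were 772 genes in LD (7.15%) and 1252 in S (11.7%). In LD 2 of the 7 genes were among them, MYF5 with a higher and MYOD1 with a lower level in PL, and in S none was.

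MYF5, an early marker of the muscle lineage, had 0.215, 0.219, 0.426, 0.512, 0.773, 0.970, 1.04 and 1.07 CPM in the LD of PUL pigs (mean 0.654 ± 0.357, SD, n = 8). In the LD of PL pigs it had 0.852, 0.980, 0.993, 1.09, 1.16, 1.59, 2.03 and 2.46 CPM (mean 1.39 ± 0.579, SD, n = 8). All 8 PL pigs lay above the median of the PUL pigs and 5 of them above every PUL pig, but the lowest PL pigs overlapped the highest PUL pigs. The log2 fold change of MYF5 in PL over PUL was 1.05 in LD (SE 0.36, 95% interval 0.28 to 1.81), a 2.07-fold difference that did not pass the adjustment (unadjusted p = 0.0100, adjusted p = 0.540). Without PUL pigs 1 to 5 it was 1.83 (SE 0.50, adjusted p = 0.962), with 3 PUL pigs left. These values rest on 3 to 38 counts per LD library. In S, MYF5 was at 0.376 to 2.71 CPM in PUL (median 0.769, mean 0.919 ± 0.753, SD, n = 8) and at 0.353 to 2.19 CPM in PL (median 1.24, mean 1.24 ± 0.712, SD, n = 8), and the log2 fold change was 0.46 (SE 0.44, 95% interval -0.46 to 1.38). Without PUL pig 5, whose S library held the highest MYF5 level, it was 0.94, and without PL pig 12 it was 0.29, the ends of the range over single pigs left out.

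Genes of fibroblasts were also higher on average in the same PL libraries. The summed level of the 6 of 8 fibroblast genes with an identifier ranged from 251.9 to 2333 CPM in the LD of PUL pigs and from 536.9 to 5455 CPM in that of PL pigs, with medians of 485.7 and 1275 CPM. Of the 5 tested in LD, all had a higher level in PL and 4 had an unadjusted p under 0.05, none passing the adjustment. Their part in the MYF5 difference was not tested. The summed level of 7 satellite cell genes, a list that holds none of the 7 regulators, was at 65.4 to 108.6 CPM in the LD of PUL pigs (median 84.4) and at 63.3 to 124.5 CPM in that of PL pigs (median 92.3), with no tested gene of the list under an unadjusted p of 0.05.

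MYOD1 had 7.23, 10.0, 10.7, 11.3, 11.9, 12.4, 12.9 and 13.1 CPM in the LD of PUL pigs (mean 11.2 ± 1.93, SD, n = 8). In the LD of PL pigs it had 2.40, 5.21, 5.49, 5.59, 6.33, 6.41, 8.65 and 17.97 CPM (mean 7.25 ± 4.66, SD, n = 8). Of the PL pigs, 6 lay below every PUL pig, and PL pig 7, with 17.97 CPM, lay above every PUL pig. The log2 fold change of MYOD1 in PL over PUL was -0.62 in LD (SE 0.29, 95% interval -1.23 to -0.01, unadjusted p = 0.0463, adjusted p = 0.691). Leaving out 1 pig at a time gave values from -0.97 (without PL pig 7, SE 0.22, adjusted p = 0.345) to -0.49 (without PL pig 12). Without PUL pigs 1 to 5 the log2 fold change was -0.70 (SE 0.43, adjusted p = 0.962). The LD library of PL pig 7 had the lowest TMM factor of all libraries (0.69, with a highest of 1.51), which raised its CPM. With library size alone, the log2 fold change of MYOD1 in LD was -0.89, the farthest from 0 of the alternatives, and the nearest was -0.62 with RLE factors. In S, MYOD1 was at 5.81 to 14.2 CPM in PUL (median 9.27, mean 9.55 ± 3.35, SD, n = 8) and at 2.51 to 13.4 CPM in PL (median 6.26, mean 7.68 ± 3.998, SD, n = 8). The groups overlapped broadly there, and the log2 fold change was -0.31 (SE 0.31, 95% interval -0.95 to 0.34).

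**Figure D3:**
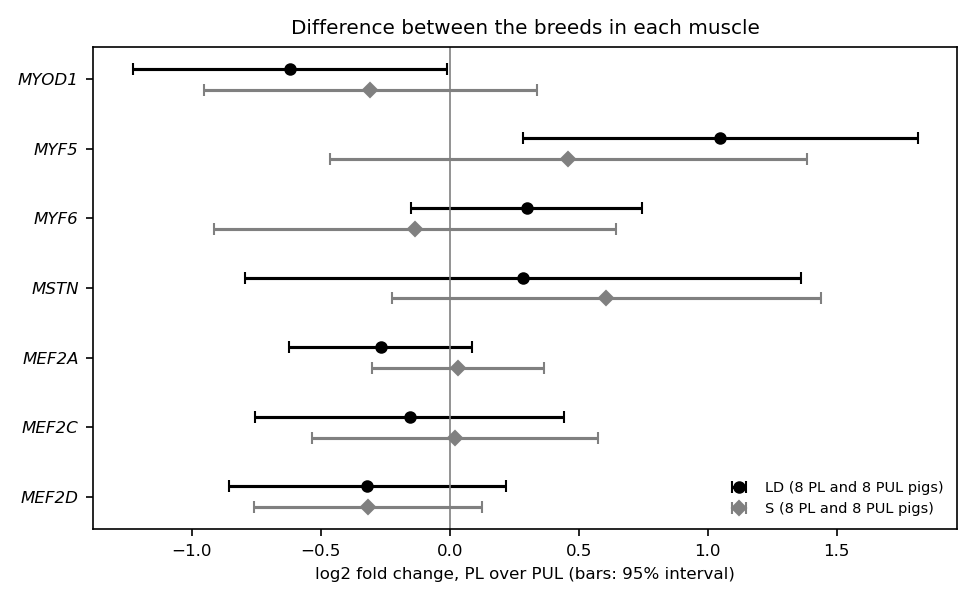
Log2 fold change of PL over PUL in LD (black circles) and in S (grey diamonds) for the 7 genes, with 95% intervals from edgeR's quasi-likelihood fit on 8 pigs per breed. Only the LD intervals of MYF5 (0.28 to 1.81) and MYOD1 (-1.23 to -0.01) leave out 0, and neither gene passed the adjustment over all genes.

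The 3 MEF2 genes and the other regulators overlapped between the breeds in both muscles. MEF2D was at 36.65 to 100.7 CPM in the LD of PUL pigs (median 77.9, mean 74.8 ± 23.8, SD, n = 8) and at 27.2 to 88.4 CPM in that of PL pigs (median 58.9, mean 59.9 ± 23.9, SD, n = 8). In S it was at 41.1 to 113.5 CPM in PUL (median 73.5, mean 71.8 ± 25.6, SD, n = 8) and at 28.1 to 75.4 CPM in PL (median 60.0, mean 57.5 ± 13.4, SD, n = 8), with 4 PUL pigs above all 8 PL pigs. In PL over PUL its log2 fold change was -0.32 in both muscles (SE 0.25 in LD and 0.21 in S, adjusted p = 0.859 and 0.550). MEF2A had -0.27 in LD (95% interval -0.62 to 0.09) and 0.03 in S (-0.30 to 0.37). MEF2C, whose means were 38.3 ± 14.4 and 34.7 ± 16.4 CPM in the LD of PUL and PL pigs and 33.4 ± 12.9 and 33.8 ± 11.9 CPM in their S (SD, n = 8 each), had -0.16 in LD (-0.75 to 0.44) and 0.02 in S (-0.53 to 0.57). For MYF6 the log2 fold change was 0.30 in LD (-0.15 to 0.75) and -0.13 in S (-0.91 to 0.65), and for MSTN it was 0.29 in LD (-0.79 to 1.36) and 0.61 in S (-0.22 to 1.44, unadjusted p = 0.143). MSTN in S was above the PUL median in 7 of 8 PL pigs.

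Single pigs moved several of these differences. For MSTN, leaving out 1 pig at a time gave log2 fold changes in PL over PUL from 0.011 (without PL pig 12) to 0.51 (without PUL pig 16) in LD, and from 0.38 (without PL pig 14) to 0.89 (without PUL pig 16) in S. Without PUL pigs 1 to 5, the values in LD were 0.07 for MYF6, 0.34 for MSTN, 0.0050 for MEF2A, 0.37 for MEF2C and -0.58 for MEF2D. In S they were then -0.21 for MYOD1, 0.57 for MYF5, 0.12 for MYF6, 0.41 for MSTN, 0.26 for MEF2A, 0.50 for MEF2C and -0.33 for MEF2D. None of these passed the adjustment, and those of MEF2A and MEF2C in LD and of MYF6 in S had changed sign.

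Without PL pig 14, the log2 fold changes in PL over PUL in LD were -0.60 for MYOD1, 0.87 for MYF5, 0.27 for MYF6, 0.43 for MSTN, -0.22 for MEF2A, -0.06 for MEF2C and -0.27 for MEF2D. In S they were -0.18 for MYOD1, 0.58 for MYF5, -0.05 for MYF6, 0.38 for MSTN, 0.11 for MEF2A, -0.09 for MEF2C and -0.31 for MEF2D. The direction in LD was that of the full set for all 7 genes, and in S it was opposite for MEF2C.

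The order of the group means differed from gene to gene. MYOD1 was highest in the LD of PUL pigs, then in their S, the S of PL pigs and the LD of PL pigs, whereas MYF5 ran from the LD of PL pigs through their S and the S of PUL pigs to the LD of PUL pigs. MSTN was higher in the LD of both breeds than in the S of either, with means of 7.34 and 6.02 CPM in LD and 4.51 and 2.96 CPM in S for PL and PUL. No tested comparison between neighbours in these orders passed the adjustment, and each group's range overlapped that of its neighbour.

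The pairing by animal also allowed the LD level to be compared with the S level across pigs, to see whether a pig high in a muscle was high in the other. With breed means taken out and on the log2(CPM + 0.5) scale, Pearson's r across 16 pigs was 0.42 for MEF2A (permutation p = 0.109, Spearman's rho 0.37, p = 0.172) and 0.41 for MYOD1 (permutation p = 0.190, rho 0.36, p = 0.204). It was 0.34 for MSTN (permutation p = 0.212, rho 0.29, p = 0.287) and 0.28 for MEF2D (permutation p = 0.308, rho 0.17, p = 0.521). MYF6 had r = 0.09 (permutation p = 0.772, rho -0.04, p = 0.888), MEF2C had 0.07 (permutation p = 0.792, rho 0.01, p = 0.970) and MYF5 had -0.18 (permutation p = 0.531, rho -0.23, p = 0.394). None of the 7 had an unadjusted p under 0.05, against 1577 of 11563 genes (13.6%), and none passed the adjustment (adjusted p 0.482 to 0.933 by Benjamini-Hochberg over all 11563 genes), which 35 genes did (0.303%). The median r over all tested genes was 0.194, and 72.8% of them had an r above 0, as had 6 of these 7.

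Within breeds, the r of MEF2A was 0.73 in PUL and 0.21 in PL, and that of MSTN was 0.54 and 0.17. For MYOD1 it was 0.16 in PUL and 0.48 in PL, for MEF2D 0.14 and 0.43, for MEF2C 0.33 and -0.19, for MYF6 -0.29 and 0.26, and for MYF5 -0.04 and -0.32. Without the 2 pigs farthest from the median LD level, r was 0.39 for MEF2A, 0.32 for MYOD1, 0.15 for MSTN, 0.13 for MEF2D, 0.05 for MEF2C, -0.14 for MYF6 and -0.29 for MYF5. The pigs left out were PUL pig 13 and PL pig 12 for MSTN and PL pigs 10 and 12 for MEF2D, the genes whose r became smaller by the most apart from MYF6.

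**Figure D4:**
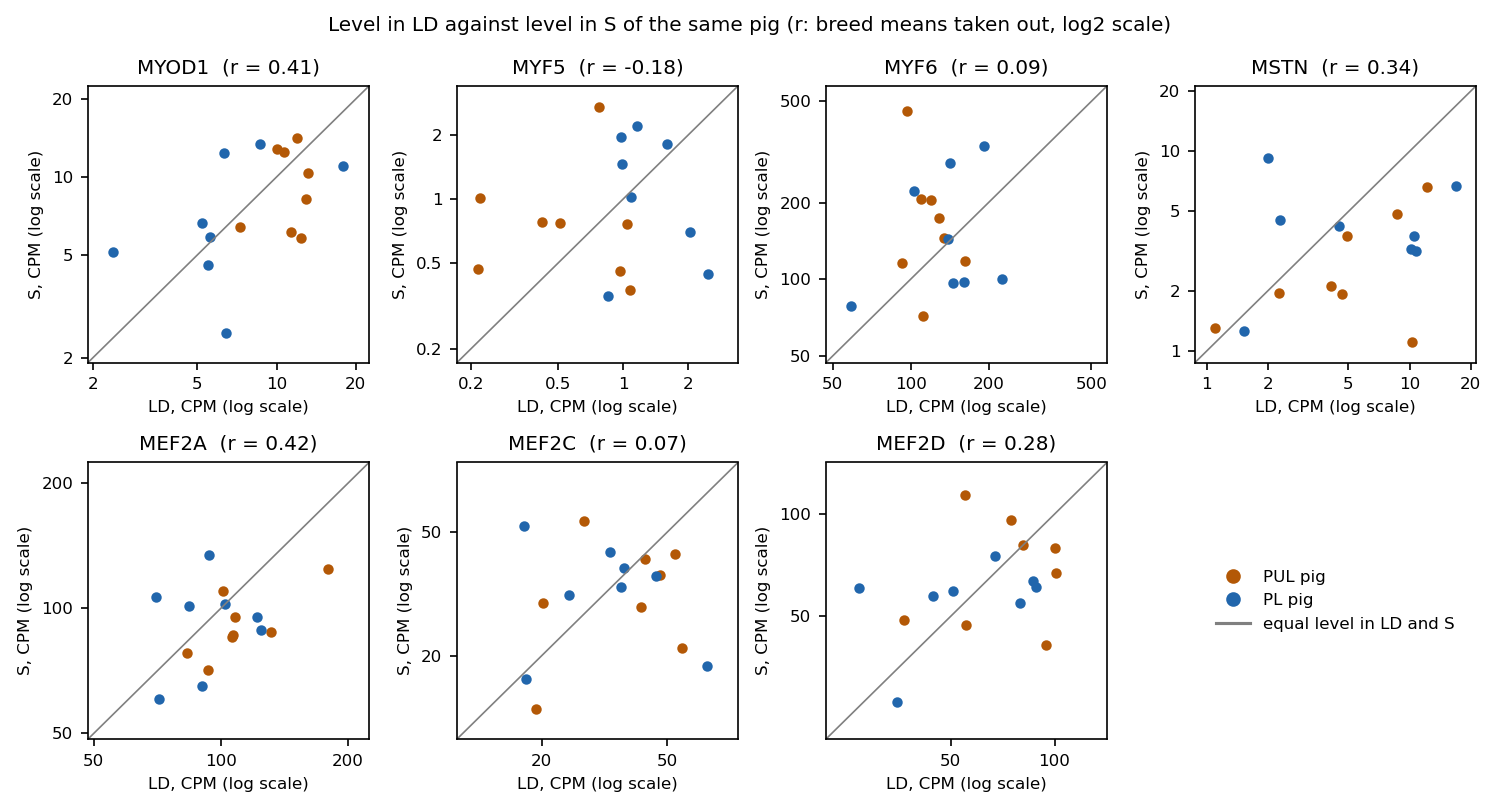
Level in LD (horizontal) against level in S (vertical) of the same pig, in CPM on log axes, for the 7 genes, with PUL and PL pigs in 2 colours, a line of equal level and, above each panel, Pearson's r on the log2 scale after breed means were taken out. The points scatter widely about the line, with r from -0.18 for MYF5 to 0.42 for MEF2A.

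Partners and inhibitors of the myogenic factors were next examined from lists chosen by function, again for S over LD over all pigs. Of 19 such genes, 12 had an identifier and 9 were tested, and none passed the adjustment. Their median log2 fold change was 0.09, beside -0.01 over all tested genes, and 6 of 9 were above 0. ID2 and ID4, which encode inhibitors that bind E proteins and keep them from the myogenic factors, had the lowest p. ID2 ran from 1.62 to 5.70 CPM in the LD of PUL pigs (median 2.65) and from 2.58 to 12.4 CPM in their S (median 4.60), and from 1.18 to 14.6 CPM (median 2.90) and 1.88 to 9.58 CPM (median 7.10) in PL. It was the higher in S in 13 of 16 pigs, with a log2 fold change of 0.87 (unadjusted p = 0.00769), and ID4 was so in 11 of 16 pigs, with 0.49 (unadjusted p = 0.00496). Within breeds, ID2 had 0.92 in PUL and 0.81 in PL, and ID4 had 0.76 in PUL and 0.22 in PL.

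Factors upstream of the family, such as the EYA and PITX genes, numbered 22, with 14 identified and 12 tested. None passed, 3 of 12 lay above 0 and the median log2 fold change was -0.18. LBX1, a homeobox gene of migrating limb muscle precursors, had 0.421 to 3.09 CPM in the LD of PUL pigs (median 1.02) and 1.56 to 3.43 CPM in their S (median 2.61), and 0.518 to 2.93 CPM (median 1.11) and 0.471 to 2.87 CPM (median 1.81) in PL. It was the higher in S in 14 of 16 pigs (log2 fold change 0.88, unadjusted p = 0.00575).

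Regulators of MEF2 activity were better represented, with 20 of 26 genes identified and 17 tested. None passed, the median log2 fold change was -0.08 and 8 lay above 0. RCAN1, an inhibitor of the phosphatase calcineurin that calcineurin signalling itself induces, was the higher in S in 14 of 16 pigs, from 17.3 to 59.7 CPM in the LD of PUL pigs (median 24.3) and from 31.9 to 413.7 CPM in their S (median 97.2), and from 20.2 to 198.2 CPM (median 25.0) and 18.5 to 496.4 CPM (median 43.2) in PL. Its log2 fold change was 1.37 (SE 0.39, unadjusted p = 0.00245, adjusted p = 0.396). NFATC1, a transcription factor that calcineurin sends to the nucleus, had 0.72 (SE 0.21, adjusted p = 0.396), with S the higher in 13 of 16 pigs. Its log2 fold change was 1.20 in PUL (SE 0.25, edgeR's quasi-likelihood test, unadjusted p = 1.29e-04, adjusted p = 0.107) but 0.21 in PL (SE 0.25).

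Around myostatin, 11 ligands, processing enzymes and inhibitors were tested, of 15 identified and 20 listed. None passed, 7 lay above 0 and the median log2 fold change was 0.23, while MSTN itself had -0.72. DCN, a member of this list, is also on the fibroblast list, of which all 5 tested genes lay above 0 (median 0.27, none with an unadjusted p under 0.05). Of 4 tested smooth muscle genes, ACTA2 (0.42, unadjusted p = 0.0145) and TAGLN (0.47, unadjusted p = 0.0158) had the lowest p without passing the adjustment. SMTN had 0.04, and CNN1 went the other way with -0.26, LD being the higher in 12 of 16 pigs. By breed, CNN1 had 0.08 in PUL and -0.59 in PL. The list median was 0.23, and the part of such cells in these values was not tested. BMP1, the protease of a family that releases myostatin from its propeptide, was the higher in S in 13 of 16 pigs (log2 fold change 0.51, unadjusted p = 0.00849). Of 12 tested receptors, SMADs and their regulators (16 listed, 14 identified), none passed, 7 lay above 0 and the median log2 fold change was 0.0046. SMAD4, the shared partner of receptor-activated SMADs, was lower in S in 14 of 16 pigs by a small amount, from 30.9 to 59.9 CPM in LD against 26.1 to 51.2 CPM in S of PUL pigs, with a log2 fold change of -0.19 (unadjusted p = 0.0337).

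Targets of the myogenic factors gave 18 tested genes of 20 identified and 33 listed, none of which passed, with 10 above 0 and a median log2 fold change of 0.03. CHRNE, the adult subunit of the muscle acetylcholine receptor, was the higher in S in 13 of 16 pigs (log2 fold change 0.99, unadjusted p = 0.00297, adjusted p = 0.396). Its log2 fold change was 1.37 in PUL and 0.58 in PL. MYBPH, a myosin-binding protein, had 0.72 (unadjusted p = 0.0171), with S the higher in 11 of 16 pigs. By breed, the median of these targets was 0.26 in PUL, with 14 of 18 above 0, and -0.14 in PL, with 5 of 18 above 0, beside -0.01 and -0.0031 over all tested genes. The median of their differences between breeds was -0.45, with 2 of 18 above 0 and none under an unadjusted p of 0.05, beside 0.01 over all tested genes. Fibre type genes, which share TNNI1, TNNT1, TNNC1 and TNNC2 with the targets, had medians in the same directions. The 4 tested slow fibre genes had 0.53 in PUL and -0.20 in PL (median difference -0.75, 0 of 4 above 0), and the 5 tested fast fibre genes had 0.19 and -0.14 (median difference -0.38, 0 of 5 above 0). The part of fibre type in the values of the targets was not tested.

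Between the breeds, none of the genes of these lists passed the adjustment. In LD, where 7.15% of all tested genes had an unadjusted p under 0.05, so had 1 of 9 partners and inhibitors, 1 of 12 upstream factors, 0 of 15 MEF2 regulators, 0 of 11 ligands and inhibitors, 1 of 12 receptors and SMADs, and 1 of 17 targets. In S, with 11.7% of all genes, the counts were 2 of 9, 2 of 10, 2 of 14, 1 of 11, 0 of 12 and 1 of 18 in the same order. The genes named next were picked after their values were seen. In LD, ID4 had a log2 fold change of 0.75 in PL over PUL (unadjusted p = 0.0146), MEOX2, a homeobox factor of early muscle, had 0.98 (unadjusted p = 0.0181), and SKIL, which represses SMAD signalling, had 0.49 (unadjusted p = 0.0192). In S, MDFI, which holds myogenic factors inactive, had 0.86 (unadjusted p = 0.0256) and TCF12, an E protein, had 0.44 (unadjusted p = 0.0259). HDAC4, a deacetylase that represses MEF2, had -0.49 (unadjusted p = 0.0104) and CAMK2D, a kinase that relieves that repression, had 0.59 (unadjusted p = 0.0137) in S. TGFB2, a ligand of the same family as myostatin, had 0.56 (unadjusted p = 0.00801), and among the targets of the myogenic factors DES, which encodes desmin, had -0.70 in S (unadjusted p = 0.00988) and MYL1, a myosin light chain gene, had 0.53 in LD (unadjusted p = 0.0377).

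The genes whose level was most like each regulator over the 32 libraries were found by Pearson's r of log2(CPM + 0.5), among 3643 or 3644 named genes with a mean of at least 10 CPM. These values are descriptive, and the 32 points are pairs of muscles of 16 pigs that share library preparation and depth. MEF2C was most like NEXN, which encodes an actin-binding protein of the Z-disc (r = 0.90), NPEPPS (0.87) and GOLGA4 (0.86). MEF2D was most like HCFC1 (0.91), the calcium sensor gene STIM1 (0.89) and PRRC2A (0.86), and MSTN was most like ARCN1 (0.87), CAMK2D (0.86) and CLINT1 (0.86). MEF2A had DYRK1A (0.83), CDK13 (0.80) and ANKHD1 (0.78).

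Among the myogenic regulatory factors, MYF6 was most like RCAN1 (r = 0.77), DNAJB4 (0.72) and DUSP10 (0.71), while MYF5 was most like SMARCA1 (0.78), the E protein gene TCF12 (0.74) and CHD1 (0.72), and MYOD1 was most like PPP1R11 (0.72), CNOT11 (0.71) and TMEM52 (0.70). With the group means taken out, the r of these genes ran from 0.86 to 0.90 for MEF2C, 0.87 to 0.91 for MEF2D, 0.86 to 0.88 for MSTN, 0.78 to 0.86 for MEF2A, 0.72 to 0.83 for MYF6, 0.71 to 0.77 for MYF5 and 0.64 to 0.65 for MYOD1. PPP1R11 is uncertain, since the table holds 2 entries of that name. Among the regulators themselves the highest r was 0.52, between MEF2C and MSTN, followed by 0.49 between MEF2A and MYOD1, and the lowest was -0.43, between MEF2D and MYF5. MYF5 and MYF6 lie next to each other in the pig RefSeq annotation (assembly Sscrofa11.1), with no gene between them.

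Several regulators varied with properties of the libraries. The first and second principal components of deviations from the group means, over 5052 genes with a mean of at least 10 CPM, held 30.6% and 16.99% of the variance. MEF2C had r = 0.79 with the first component and MSTN 0.49, beside a median absolute r of 0.396 over all tested genes. With the second component, MEF2D had -0.57 and MYF5 0.49, beside a median of 0.293. The LD library of PL pig 12 and the S library of PL pig 14 were high on the first component (0.317 and 0.413), and the LD library of PL pig 14 was low (-0.300), as were the levels of MEF2C in these libraries (67.2, 52.4 and 17.6 CPM). With the first and second components as covariates, the log2 fold change of MSTN in S over LD was -0.71 (SE 0.23, adjusted p = 0.141) and that of MYF5 in PL over PUL in LD was 1.12 (SE 0.28, adjusted p = 0.102). The components come from these same libraries with the group means taken out, so that as covariates they mainly lower the remaining spread. With them 132 genes were called in S over LD over all pigs, beside 13 without, and 0 in PL over PUL in LD. No conclusion is drawn from the lower adjusted p.

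The summed fibroblast genes had r = -0.62 with MEF2C, -0.60 with MEF2A and 0.52 with MYF5. The summed satellite cell genes had r = 0.49 with MYF5. The summed level of the 4 identified slow fibre genes ranged from 229.9 to 17518 CPM, and its r was -0.40 with MYOD1 and 0.38 with MEF2C. MEF2D had r = -0.51 with the TMM factor of the library, and the highest r with the total count was 0.25, for MEF2A. The group means were not taken out of the levels for these r, so that differences between the breeds enter them. MYF5 and the fibroblast genes, for example, were both higher on average in the LD of PL pigs. No r over all tested genes was computed for these properties, so whether the values are unusual is not known. The part of these properties in the differences given above was not tested.

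**Figure D5:**
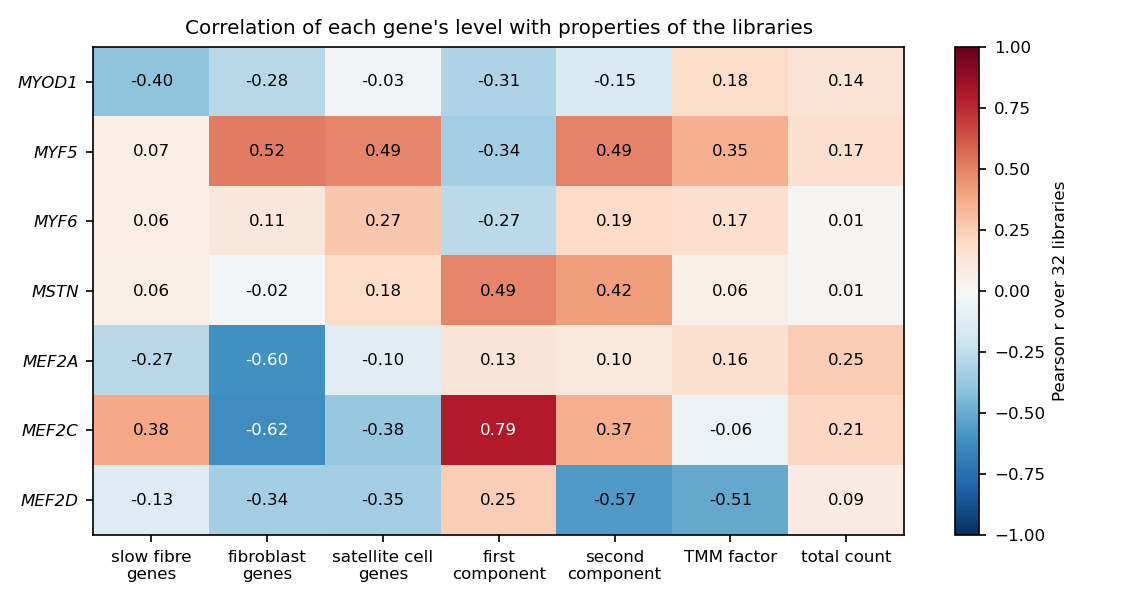
Pearson's r over 32 libraries between the log2 level of each of the 7 genes (rows) and the log2 summed level of slow fibre, fibroblast and satellite cell genes, the first and second principal components, the log2 TMM factor and the log2 total count (columns), in colour from -1 to 1 and as numbers. The strongest value is that of MEF2C with the first component (0.79), and MEF2A and MEF2C share a negative r with the fibroblast genes (-0.60 and -0.62). Group means were not taken out of the gene levels.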

How the data were processed

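RNA from 2 muscles of 16 gilts was sequenced after removal of ribosomal RNA, as single reads from a library kit that does not mark strand, so antisense reads cannot be told apart. The authors used Bowtie 2 to align reads to Sscrofa10.2 and RSEM to quantify genes, and they deposited RSEM's expected counts per gene without normalization. Reads of several possible origins were divided among genes by RSEM. The isoform table was not used here. Groups and pigs were taken from the labels.

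After rounding, edgeR 4.0.16 under R 4.3.3 was applied (quasi-likelihood test, TMM factors, filterByExpr, Benjamini-Hochberg adjustment over all tested genes, adjusted p threshold of 0.05). S was compared with LD with the pig as a block, in all pigs and within breeds, and breeds were compared in each muscle separately. Standard errors were taken from the F statistic. Alternatives used DESeq2 1.42.0 (Wald test), edgeR's exact test, other factors, filters and covariates, and the removal of each pig. Simulated data tested the quasi-likelihood fits of S over LD in all pigs, breed by muscle, and PL over PUL in each muscle. A 2-fold change was recovered in 83.6% of changed genes for S over LD and in 10.4% for breed by muscle. For PL over PUL the shares were 37.3% in LD and 53.7% in S. For a 1.5-fold change the shares were 32.8%, 1.49%, 4.48% and 10.4% in the same order, so that differences of this size could be missed. The simulated sets gave 144, 54, 80 and 103 calls in the same order, against 13, 0, 0 and 0 in the real data. The Benjamini-Hochberg adjustment is less strict where more genes are called, so the shares cannot be carried over to these data. They are also averages over genes, whereas MSTN and MYF5 varied more (coefficients of 50.2% and 52.0%, beside a median of 30.1%). Whether a 2-fold change in the regulators would have been called was not tested. Symbols were matched to 11804 of 25322 identifiers; neither coordinates nor sequences are given, as a Sscrofa10.2 genome was not used here. Libraries of a group differed by a chi-square of at least 32.0 per degree of freedom, so none was a duplicate within sampling noise. In S over LD and in the test of breed by muscle, p-values measure the spread of the muscle difference between pigs. Between breeds they measure the spread between pigs together with that between libraries, as each muscle of a pig had 1 library. For LD with S across pigs they come from permuting the S values within breeds. The pairing comes from the labels, which give LD and S of the same animal; own-pair correlations of deviations ran from -0.51 to 0.81. Dixon's test examined each group of 8 libraries on the CPM scale.

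The genes, the lists and the tests were chosen with earlier results of these data known. Genes of the lists named in the text were those among the 4 with the lowest p of each list in S over LD, and those named between breeds were chosen after their values were seen; the pigs left out together were chosen after their hepatocyte gene levels were known.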

Additional observations from a re-analysis of the deposited data

Results flagged for a closer look

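Of the 28 sets of 8 libraries examined, 1 for each gene in each group, 4 held a library far from the others by Dixon's test at the 95% level. For normally distributed values chance alone flags about 1 in 20. The test was made on CPM and not on log levels, and where CPM are skewed high values are flagged more often. The number flagged is therefore not compared with that rate, and the log scale was not tested. MYOD1 was at 17.97 CPM in the LD of PL pig 7, with the next PL pig at 8.65 CPM. MYF5 was at 2.71 CPM in the S of PUL pig 5, with the next PUL pig at 1.01 CPM, and MYF6 was at 459.0 CPM in the same library, with the next at 207.4 CPM. MEF2D was at 28.1 CPM in the S of PL pig 12, below the next PL pig at 54.6 CPM.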

How the results depend on the processing

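Of 1107 values of the 7 genes under the alternatives, 1056 kept their direction and their side of the threshold, none became called and 51 changed sign, 42 of them when a single pig was left out. Log2 fold changes in S over LD that changed sign were that of MYF5 in all pigs with the first and second principal components as covariates (-0.016), and that of MEF2A in PL with library size alone (0.095) and with at least 10 counts in every library (0.0016). Without PUL pigs 1 to 5, PL over PUL changed sign for MEF2A (0.0050) and MEF2C (0.37) in LD and for MYF6 in S (0.12). The r of LD with S changed sign for MYF5 without centring within breeds (0.041) and for MYF6 with library size alone (-0.15) and without the 2 pigs farthest from the median (-0.14). The principal component covariates and the removal of PUL pigs 1 to 5 were added or chosen with the data known, and the cause of these changes was not tested.

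Leaving out a single pig, the log2 fold changes in S over LD ran, in all pigs, from -0.20 to 0.011 for MEF2C, from -0.11 to 0.046 for MEF2D and from -0.088 to 0.19 for MYF5. In PL they ran from -0.11 to 0.046 for MEF2A, from -0.20 to 0.26 for MEF2C, from -0.16 to 0.085 for MEF2D, from -0.44 to 0.038 for MYF5, from -0.029 to 0.30 for MYF6 and from -0.024 to 0.29 for MYOD1. MEF2D ran from -0.22 to 0.093 in PUL and from -0.090 to 0.23 in the difference between breeds. PL over PUL in S ran from -0.055 to 0.11 for MEF2A, from -0.10 to 0.16 for MEF2C and from -0.35 to 0.21 for MYF6.

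The number of genes called depended more on the processing. In S over LD over all pigs (13 genes) it was 66 with DESeq2, 132 with the component covariates, and 0 with at least 10 counts in every library or without PUL pigs 1 to 5, and without a single pig it ran from 4 to 86, the highest without PL pig 14. In PUL (3 genes) it was 79 with DESeq2, 6 with library size alone, 8 with no filter, 219 with the component covariates, 0 with at least 10 counts or without PUL pigs 1 to 5, and 0 to 21 without a single pig. In PL (0 genes) it was 4 with DESeq2 and 0 to 6 without a single pig, and in the test of breed by muscle (0 genes) 1 with DESeq2. In PL over PUL in LD (0 genes) it was 19 with DESeq2, 13 with edgeR's exact test, 4 with no filter, 1 without PUL pigs 1 to 5 and 0 to 1 without a single pig. In S (0 genes) it was 104 with DESeq2, 56 with the exact test, 1 with RLE factors, 4 with no filter, 1 without PUL pigs 1 to 5, 352 with the component covariates and 0 to 1 without a single pig. For LD with S across pigs (35 genes) it was 250 without centring and 7 with library size alone.

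In S over LD over all pigs without the pig as a block, and so without the pairing, 16 genes were called and MSTN had -0.86. For PL over PUL, the replicate numbers of the breeds name different pigs, and with a replicate block 0 genes were called in either muscle. The planned look at isoforms was not run, since transcript identifiers could not be matched to genes, and MYF5 could not be fitted with at least 10 counts in every library.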
